A study of Mus musculus with 6 samples.

Results

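The probes described here were the 93 of the mouse LncRNA array that carry the accession of an AK cDNA as their name, such as AK135967_P1. Membership was set by name, as every non-control probe whose name begins with AK and a number, out of 59631 normalised probes. Earlier results of these data were known when the members were chosen. Each had 1 spot on the array, no clone was represented by more than 1 of these probes, and none of their spots was saturated or marked as an outlier. AK accessions are given to cDNA clones sequenced as complete inserts, and the mouse ones come largely from the RIKEN collection annotated by the FANTOM projects. Such clones were copied from RNA of many tissues, include copies of both protein-coding and non-coding transcripts, and became a main source of long non-coding RNA candidates for arrays of this kind. An AK name therefore tells where a sequence was found, not what the transcript does. None of the 93 names could be paired with a gene in the tables used here, so each transcript is given by its clone name, with no function, sequence or genome position.

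Liver RNA was measured on 6 single-colour arrays, 3 of Apcfl/fl liver with hepatocellular carcinoma (HCC) and 3 of normal Apc+/+ liver, all from C57Bl/6 mice kept to 12 months. Apcfl/fl mice are homozygous for the hypomorphic Apc580s allele of Apc, an inhibitor of Wnt/β-catenin signalling, and the methods name no Cre for these animals. The tumour share of each sample is not given in the sources used here. The labels do not say whether the samples of a group came from separate animals, so the p-values measure only the spread between these samples, which may be technical.

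Apcfl/fl replicates 1 and 2 stood out before any comparison of groups, since they differed by less than the scanner software's own error. The squared difference over the squared error averaged 0.774 over all single-spot probes bright on every array and 0.480 over the 52 such AK probes, where 1 is the level of that error. Their mean was therefore taken as 1 sample, so that 2 Apcfl/fl samples were set against 3 of Apc+/+, and results for 6 separate arrays are given where they differ. The Apc+/+ pairs averaged 1.99 (replicates 2 and 3) to 7.56 over all such probes, and Apcfl/fl replicate 3 averaged 14.9 and 15.1 against the other two. Apc+/+ replicate 2 had the fewest probes marked well above background, 50.8% of all probes against 70.7% to 82.8% on the other arrays. The file headers also give an array position code, whose leading number was 1 for all 3 Apcfl/fl arrays and Apc+/+ replicate 1, and 2 for Apc+/+ replicates 2 and 3.

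Signal was detected for most AK probes. Of the 93 probes, 52 were well above background on all 6 arrays, 25 on 3 to 5 arrays and 16 on fewer, of which 5 were not above background on any array. The 77 probes on at least 3 arrays (82.8% of 93) were tested, compared with 76.5% of all probes and 65.5% of the 1116 other probes named by a GenBank-style accession. Per array, 72, 80 and 71 AK probes were well above background in the Apcfl/fl samples and 81, 52 and 78 in the Apc+/+ samples. The low count belonged to the array with the lowest share over all probes, although its median AK intensity (57.1) was above those of the 3 HCC arrays (43.3 to 53.6). At the edge of the filter, the 6 probes detected on exactly 3 arrays had mean normalised log2 signals of 3.01 to 4.16, and the 5 probes detected on 2 arrays had 2.79 to 3.40.

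Signal of the AK probes covered the whole scale. The median of the 93 mean levels was 5.77 on the normalised log2 scale, with quartiles of 3.83 and 8.61, against a median of 5.53 over all probes and 4.43 over the other accession-named probes. A level is set by the probe as well as by its transcript, so these medians describe signal and do not rank transcripts. The brightest negative-control probe, a probe the array carries to measure non-specific signal, averaged 5.50. In all, 51 AK probes (54.8%) lay above it, compared with 50.4% of all probes and 37.1% of the other accession-named probes. At the top of the scale, 4 of the 93 AK probes (4.30%) exceeded 15, a level passed by 2.07% of all probes.

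**Figure D1:**
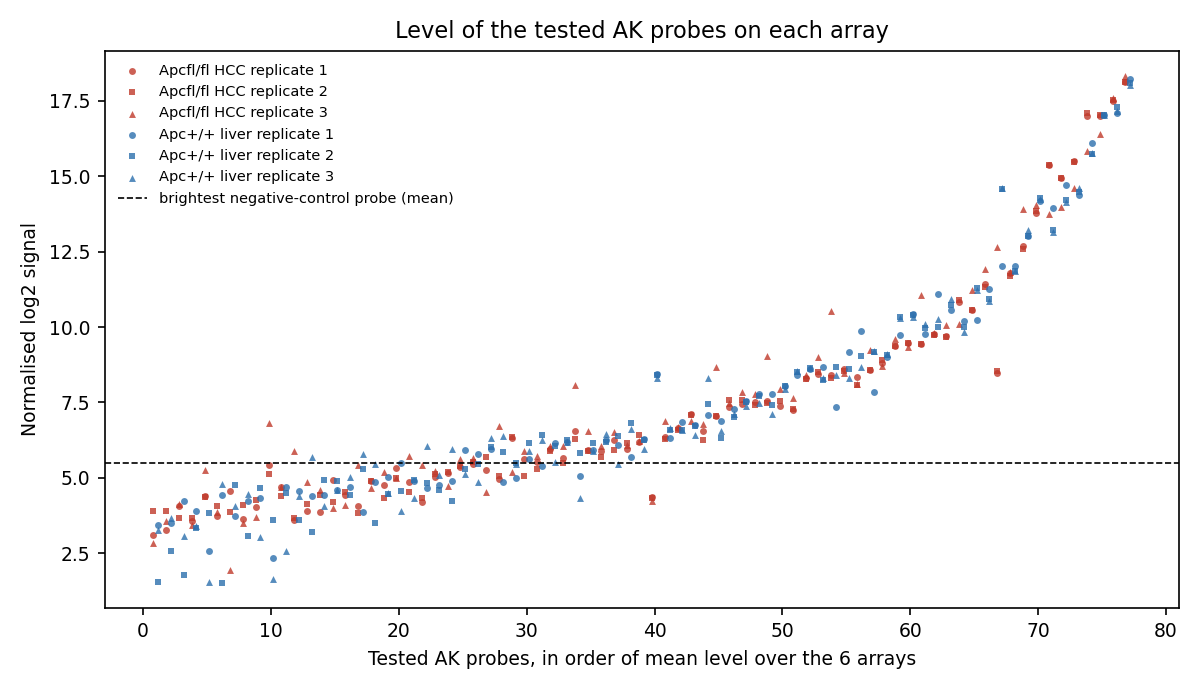
Normalised log2 signal (vertical axis) of the 77 tested AK probes, placed in order of their mean over the 6 arrays, with red symbols for the 3 Apcfl/fl HCC arrays, blue symbols for the 3 Apc+/+ liver arrays and a dashed line at the mean of the brightest negative-control probe (5.50). Mean levels ran from 3.01 to 18.15, 51 probes lay above the line, and red and blue symbols lie close together for most probes, with AK135967 and AK007918 among the exceptions.

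The 5 brightest AK probes were clones AK216629, AK198651, AK210533, AK215547 and AK217121, and none passed the test between the groups. AK216629 gave normalised log2 signals of 18.13, 18.14 and 18.33 in Apcfl/fl HCC and 18.23, 18.08 and 18.02 in Apc+/+ liver. AK198651 gave 17.50, 17.53 and 17.58 in HCC and 17.09, 17.29 and 17.18 in normal liver. The arrays of the 2 groups overlapped for AK216629, while for AK198651 every HCC array was above every normal array. The fitted log2 difference of AK198651 was 0.36 with a standard error of 0.19 (adjusted p = 0.389, limma). AK210533 gave 17.02, 17.04 and 16.42 in HCC and 17.04, 17.04 and 17.05 in normal liver. Its intensities in normal liver were 149124, 114821 and 127875 before normalisation. After it, the Apc+/+ arrays spanned only 0.01 and the spread came from HCC replicate 3. The same HCC array was the lowest of its group for AK215547, which gave 17.00, 17.10 and 15.85 in HCC and 16.12, 15.75 and 15.78 in normal liver. It was the lowest again for AK217121, with 15.51, 15.46 and 14.62 in HCC against 14.39, 14.47 and 14.60 in normal liver. Log2 differences between the groups were 0.12, -0.32, 0.57 and 0.56 for AK216629, AK210533, AK215547 and AK217121, and their adjusted p-values ranged from 0.421 to 0.792. Without HCC replicate 3 these differences were 0.024, -0.013, 1.17 and 0.9999. With scaling to the 75th percentile in place of quantile normalisation they were 0.33, 0.055, 0.99 and 0.95, and that of AK198651 was 0.73.

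All 5 of these clones belong to the highest accession numbers of the set. The 13 probes numbered AK180000 and higher were all detected well enough to be tested and had a median level of 11.84, ranging from 4.72 (AK196148) to 18.15. Of these, 9 exceeded a level of 10 and 4 exceeded 15. The 80 probes with lower numbers had a median level of 5.63, and 7 of them exceeded 10 and none exceeded 15. The 64 tested probes with lower numbers had log2 differences between the groups from -4.08 to 3.52. Those of the 13 high numbers ran from -0.69 (AK182289) to 1.13 (AK188366). The value of 3.52 is the fitted one of AK145170, which was not detected in normal liver. The 2 sets differ in size and level, so the widths of these ranges cannot be compared. The split at AK180000 was chosen after the values were seen and is given as a description. AK188366, with the largest difference of the 13, gave 15.38, 15.37 and 13.75 in HCC and 13.94, 13.22 and 13.14 in normal liver, and HCC replicate 3 lay inside the range of the normal arrays.

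The comparison of Apcfl/fl HCC with normal liver asked which transcripts differ in a tumour driven by Wnt/β-catenin. Among AK probes, 1 of 77 passed the adjusted threshold (an adjusted p under 0.05 in limma, Benjamini-Hochberg over all 45640 tested probes, with a fold change of at least 2), compared with 1.92% of all tested probes. It was lower in HCC, as were 0.896% of all tested probes, and no AK probe was called higher, against 1.03% of all. The study's methods used the unadjusted p (0.05 or less) together with a 2-fold difference. A total of 3 AK probes were higher and 4 lower at this methods' threshold, where 5.36% and 5.85% of all tested probes passed. Of the 3 higher probes, AK145170 and AK015763 met the detection filter through the HCC arrays alone, so their count is no support for a difference. Without the adjustment or the fold, 9 AK probes had a p under 0.05, as did 18.2% of all tested probes. With 6 separate arrays, 3 AK probes passed after adjustment, beside 7.54% of all tested probes, 1 of them higher, which was AK145170, and 2 lower (3.44% and 4.1% of all). At the methods' threshold 4 were then higher and 5 lower (6.79% and 6.63% of all), and 5 had an adjusted p under 0.05 at any fold (9.73% of all). These shares are near or under the background, and nothing is read from them about AK clones as a class. In RNA taken from tissue, fewer cells of a type and less RNA per cell cannot be told apart.

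Most AK probes differed little between HCC and normal liver. The median log2 difference, HCC minus normal, was 0.09 over the 77 probes and 0.06 over all tested probes, with 42 AK probes above 0 and 35 below. The quartiles were -0.31 and 0.36 for AK probes and -0.31 and 0.42 for all tested probes. A difference within 0.5 on the log2 scale was seen for 53 AK probes (68.8%, against 60.5% of all), and 13 exceeded 2-fold (16.9%, against 16.4% of all). The 3 arrays of each group did not overlap for 25 AK probes, 9 higher and 16 lower in HCC, compared with 17.4% and 16.4% of all tested probes (33.8% in either direction). The count without overlap takes the nearly identical HCC replicates 1 and 2 as separate arrays. A small difference was bounded more tightly for some probes than for others. The 95% interval lay inside 2-fold in both directions for 25 of the 77 probes and reached beyond it for the other 52, with a median standard error of 0.34 (range 0.18 to 1.47).

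**Figure D2:**
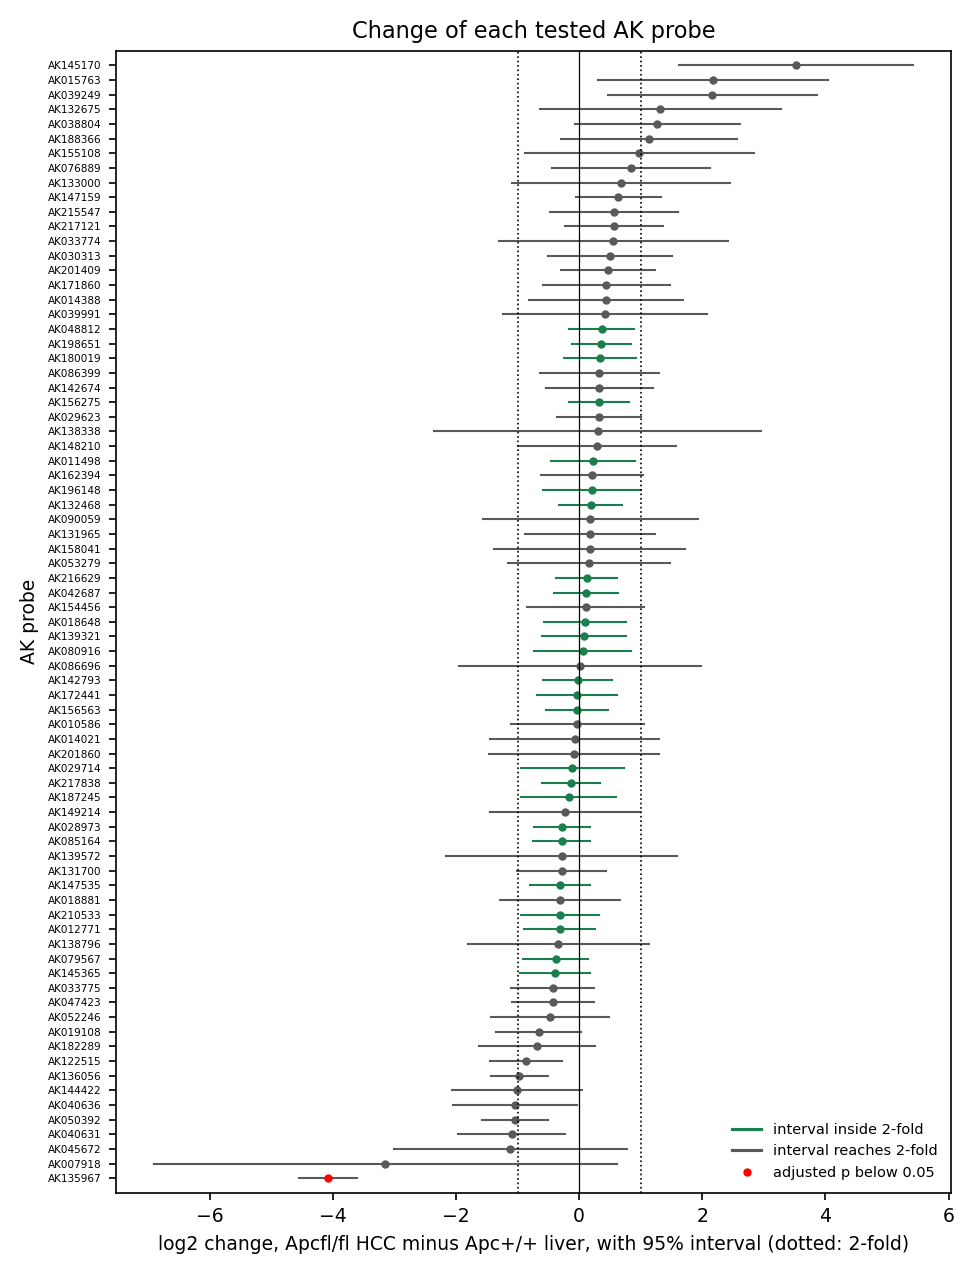
Log2 difference, Apcfl/fl HCC minus Apc+/+ liver (horizontal axis), with its 95% interval from limma for each of the 77 tested AK probes (vertical axis, in order of the difference), dotted lines at 2-fold, green for the 25 intervals that lie inside 2-fold, grey for the other 52 and a red point on the grey interval of AK135967, which had an adjusted p under 0.05. AK135967 stands alone at the bottom with a narrow interval, and the wider interval above it, of AK007918, crosses 0.

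**Figure D3:**
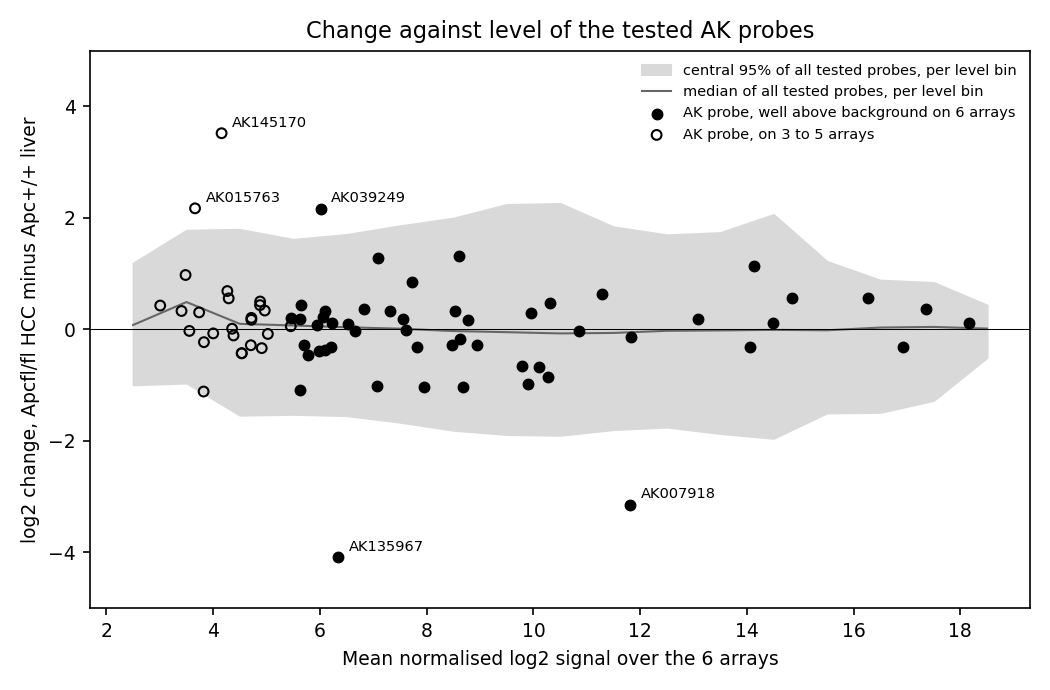
Log2 difference, Apcfl/fl HCC minus Apc+/+ liver (vertical axis), against the mean normalised log2 signal over the 6 arrays (horizontal axis) for the 77 tested AK probes, filled for probes detected on all 6 arrays and open for those detected on 3 to 5, over a grey band that holds the central 95% of all tested probes at each level. The 5 named probes, AK145170, AK015763, AK039249, AK007918 and AK135967, lie outside the band, and the probes brighter than 12 lie between -0.32 and 1.13.

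AK135967 fell in Apcfl/fl HCC. Its processed intensities were 20.5, 19.1 and 15.8 in HCC and 419, 316 and 338 in normal liver, or 4.38, 4.33 and 4.23 against 8.44, 8.39 and 8.29 after log2 and normalisation. All 3 HCC arrays lay far under all 3 normal arrays, and the arrays of each group spanned no more than 0.15. The mean was 4.29 ± 0.09 in HCC (SD, n = 2) and 8.38 ± 0.07 in normal liver (SD, n = 3), a log2 difference of -4.08 with a standard error of 0.18 and a 95% interval of -4.55 to -3.61. This is 16.9-fold, with an adjusted p of 0.0125 in limma, and it ranked 38 among all tested probes by size of the fall and 6 by p. The signal was marked as detected on each of the 6 arrays, yet the HCC arrays were under the brightest negative control (5.50), so the size of the fall rests on a faint HCC signal. With the normexp correction, which also adds an offset of 50 to each intensity, the difference was -2.20 and the call was kept.

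The adjusted call for AK135967 needed all 3 Apc+/+ arrays. Leaving out Apc+/+ replicate 1, 2 or 3 gave adjusted p-values of 0.0570, 0.0625 and 0.125 in limma, with differences of -4.05, -4.07 and -4.12. In those fits at most 1 of the 45640 tested probes passed the threshold, compared with 878 with all samples. Blocking on the array position code, which leaves Apc+/+ replicate 1 as the normal liver array to compare, gave a difference of -4.15 and an adjusted p of 0.144, and 0 of the 45640 probes passed. Leaving out HCC replicate 1 or 2 gave 0.0123 and 0.0131. Without HCC replicate 3 the adjusted p was 0.0469, but HCC was then 1 sample, assumed to vary like the normal liver samples.

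Next by adjusted p among the probes lower in HCC were AK136056 and AK050392, neither of which passed the adjusted threshold. AK136056 gave 9.46, 9.48 and 9.34 in HCC and 10.42, 10.40 and 10.32 in normal liver. Its log2 difference of -0.97 (standard error 0.18, adjusted p = 0.0738 in limma) was just short of 2-fold, and its groups were as tight as those of AK135967. AK050392 gave 7.25, 7.28 and 7.64 in HCC and 8.41, 8.53 and 8.55 in normal liver, a difference of -1.04 with a standard error of 0.21 (adjusted p = 0.0839 in limma). Taking the 6 arrays as separate samples gave adjusted p-values of 0.0138 and 0.0162 for AK136056 and AK050392. AK122515 followed with 9.71, 9.68 and 10.06 in HCC and 10.56, 10.72 and 10.93 in normal liver, a difference of -0.86 with an adjusted p of 0.142 in limma (0.0344 with 6 arrays). In each of the 3 probes every HCC array was below every normal array, and Apcfl/fl replicate 3 was within 0.39 of the other HCC arrays.

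AK040631 and AK040636, whose accession numbers differ by 5, both passed the methods' threshold on the lower side. AK040631 gave 5.26, 5.67 and 4.52 in HCC and 5.94, 6.03 and 6.31 in normal liver, a log2 difference of -1.10 with a standard error of 0.34 (adjusted p = 0.190, limma). AK040636 gave 8.35, 8.06 and 8.11 in HCC and 9.87, 9.04 and 8.67 in normal liver, a difference of -1.04 with a standard error of 0.39 (adjusted p = 0.263, limma). The groups of both probes did not overlap, but the wide group was HCC for AK040631 and normal liver for AK040636. Neither stayed beyond 2-fold throughout, since AK040631 was at -0.62 without HCC replicate 3 and AK040636 at -0.70 without Apc+/+ replicate 1. Nearby numbers do not place 2 clones in the same locus, and the other pair with neighbouring numbers that was tested, AK033774 and AK033775, had differences of 0.56 and -0.43.

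Higher in HCC at the methods' threshold were AK145170, AK015763 and AK039249, and none passed after adjustment. AK145170 gave 5.42, 5.12 and 6.82 in HCC and 2.34, 3.61 and 1.63 in normal liver. AK015763 gave 4.40, 4.37 and 5.25 in HCC and 2.57, 3.85 and 1.53 in normal liver. Both were well above background on the 3 HCC arrays and on no normal array, so they entered the test through the HCC samples alone and had to differ, and their tests support nothing. Their normal liver values are bounds. Each normal array was set at its lowest detected signal, or at the probe's own value where that is higher. With these floors mean HCC was 4.62-fold higher for AK145170 and 1.97-fold for AK015763, the latter short of 2-fold. The floors, 3.20, 5.34 and 2.98 on Apc+/+ replicates 1, 2 and 3, lay under the brightest negative control (5.50). The spread of the HCC arrays was left out, so these folds are not lower limits. With the normexp correction, which also adds an offset to each intensity, the log2 differences were smaller, 1.06 and 0.50. The adjusted p-values in limma, 0.0921 and 0.215, belong to the fitted differences of 3.52 and 2.17 and not to the folds from the floors. AK039249 was detected on all 6 arrays, with 6.54, 6.27 and 8.07 in HCC and 5.06, 5.84 and 4.33 in normal liver, a log2 difference of 2.16 with a standard error of 0.67 (adjusted p = 0.186, limma), which was 1.33 without HCC replicate 3. For all 3 probes replicate 3 was the brightest HCC array, replicate 2 was the brightest Apc+/+ array, and the groups did not overlap.

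**Figure D4:**
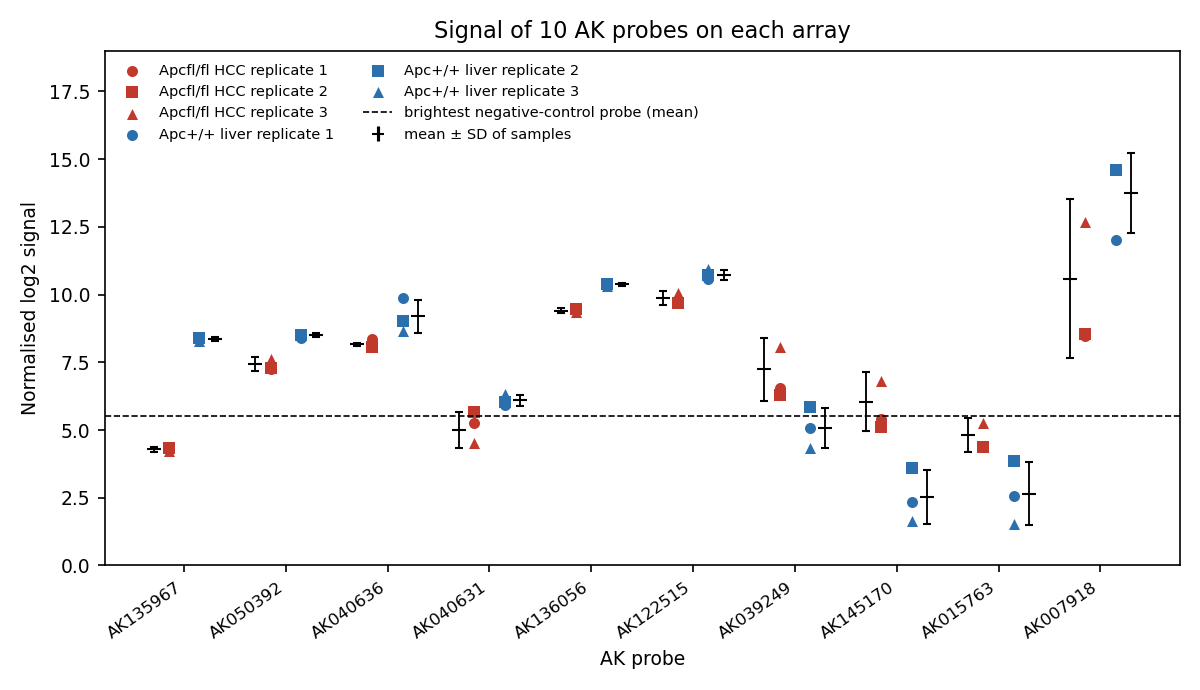
Normalised log2 signal (vertical axis) of 10 AK probes (horizontal axis) on each array, red for Apcfl/fl HCC and blue for Apc+/+ liver, with the mean and SD of the samples in black (2 in HCC, 3 in normal liver) and a dashed line at the brightest negative-control probe (5.50). AK135967, AK136056 and AK050392 have tight groups that lie apart, and the groups of AK007918 overlap. All arrays of AK015763 lie under the dashed line, as do those of AK145170 except HCC replicate 3.

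The widest spread within a group was that of AK007918, which gave 8.48, 8.55 and 12.66 in HCC and 12.02, 14.59 and 14.60 in normal liver. Its intensities ran from 362 to 6267 within HCC and from 4970 to 22526 within normal liver, so its signal was bright in every normal sample. The mean was 10.59 ± 2.93 in HCC (SD, n = 2) and 13.74 ± 1.48 in normal liver (SD, n = 3), and HCC replicate 3 lay above Apc+/+ replicate 1. The log2 difference of -3.15 had a standard error of 1.47 and an adjusted p of 0.348 in limma, which is the largest negative difference after that of AK135967 and is not separated from 0. The value moved with single arrays, to -5.22 without HCC replicate 3 (adjusted p = 0.137) and to -1.43 with the array position code as a block (adjusted p = 0.911).

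Among probes detected on all 6 arrays, AK132675 and AK039249 were the next widest in HCC, and AK090059 and AK039249 the next widest in normal liver. AK132675 gave 8.41, 8.32 and 10.54 in HCC and 7.33, 8.68 and 8.40 in normal liver, a log2 difference of 1.32 (standard error 0.76, adjusted p = 0.441, limma), which was 0.23 without HCC replicate 3. AK090059 gave 4.96, 5.06 and 6.73 in HCC and 4.85, 5.84 and 6.37 in normal liver, a difference of 0.18 (standard error 0.69, adjusted p = 0.914, limma). The direction of AK090059 turned in several fits, to -0.68 without HCC replicate 3. For both probes replicate 3 was the HCC array that stood apart.

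Spread was shared by many AK probes and followed the array. Apcfl/fl replicates 1 and 2 differed by more than 2-fold for none of the 52 AK probes bright on every array, whereas replicate 3 differed from them for 11 and 12, and 17.9% and 17.7% of all such probes did so. Over the 77 tested probes, replicate 3 was at least 2-fold above the mean of the other 2 for 13 and below it for 4. Over all tested probes the shares were 8.10% above and 8.93% below. The AK differences ran from 4.15 (AK007918) to -2.27 (AK045672) on the log2 scale. For AK045672 the replicate 3 signal was 1.94, under that array's lowest detected signal of 3.74. Together the AK probes beyond 2-fold were 22.1% of those tested, compared with 17.0% of all tested probes. In normal liver, replicate 1 was at least 2-fold above the mean of replicates 2 and 3 for 6 AK probes and below it for 7 (6.55% and 4.75% of all tested probes), or 16.9% together, compared with 11.3%. More AK probes were thus above than below in HCC replicate 3, which was not so over all probes, a description with no test. Median SDs over samples were 0.32 in HCC and 0.31 in normal liver for AK probes, and 0.25 and 0.26 for all tested probes.

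**Figure D5:**
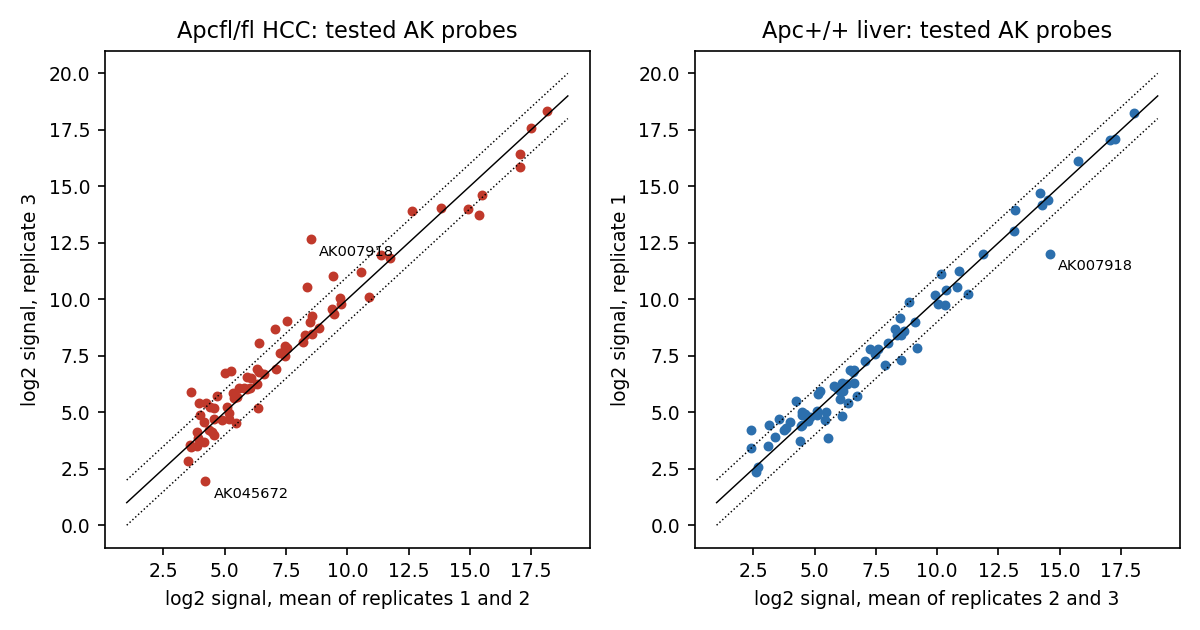
Normalised log2 signal of the 77 tested AK probes on the array that stood apart in each group (vertical axes) against the mean of the other 2 arrays (horizontal axes), for Apcfl/fl HCC on the left and Apc+/+ liver on the right, with a solid line at equality and dotted lines at 2-fold. In HCC 17 points lie beyond the dotted lines, 13 above and 4 below, and AK007918 is the farthest out in both panels.

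Spread also differed by level. For the 26 tested AK probes at or below the brightest negative control, the median range over the 3 arrays was 0.62 in HCC and 1.39 in normal liver. The 35 probes between there and a level of 10 had median ranges of 0.42 and 0.37, and the 16 brighter probes 0.63 and 0.36. The near-identical HCC replicates 1 and 2 and Apc+/+ replicate 2, with the fewest detected probes, were among these arrays, and their part in the values was not tested.

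Markers of the cell types of the liver were set beside these results. They could be named only where the authors' list of probes that differ gives a gene name, so they are selected for a difference. Of 5 hepatocyte markers, 2 could be named (Apoa1, a lipoprotein component, and Cps1, an enzyme of the urea cycle). The log2 of their summed signals was 13.57 to 14.62 in HCC and 15.54 to 16.97 in normal liver. That value is mainly Apoa1 (mean 14.07 in HCC), which was far brighter than Cps1 (6.07). Spp1, the 1 of 5 cholangiocyte markers with a name, ran from 12.33 to 13.89 in HCC and from 7.41 to 8.52 in normal liver. It was read from 1 probe. The gene lists set for this report also hold Spp1 as a marker of fetal liver and HCC, and which cells gave its signal was not tested. The 2 of 6 leukocyte markers with a name were Cd74 and Adgre1. The log2 of their summed signals was 11.49 to 13.09 in HCC and 10.32 to 10.97 in normal liver, mainly from Cd74. Lrat, 1 of 5 stellate cell markers, ran from 4.64 to 6.09 in HCC and 6.79 to 7.13 in normal liver, and Pecam1, 1 of 4 endothelial markers, from 5.10 to 5.96 and 6.90 to 7.22. None of 3 erythroid markers could be named. Among these 7 markers Spp1 alone passed the adjusted threshold (adjusted p = 0.0351, limma), and the part of cell composition in the fall of AK135967 was not tested.

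The authors' list of probes that differ held 3 of the 93 AK probes (3.23%, against 7.04% of all probes), AK135967, AK050392 and AK040636, all lower in HCC. It was made on these same samples and is no independent evidence of direction. Its deposited log2 values for AK135967 were 4.75, 4.71 and 4.61 in HCC and 9.04, 8.99 and 8.88 in normal liver, so the order of the 6 arrays was that of the scanner values. The list also held 511 probes with an AK sequence name under another kind of probe name, which fall outside the rule used here.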

How the data were processed

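Array images were quantified by the authors with Agilent Feature Extraction 11.0.1.1, per the labels. The deposited scanner files give a background-subtracted processed intensity per spot, an error estimate and flags, with no normalisation between arrays. A table of the authors holds quantile-normalised log2 values of 4197 probes they called between the groups. Control spots (1319 of 62513), 1200 spots of 20 negative-control probes and outlier spots (78 probes) were left out. After log2 transformation, repeated spots were averaged per probe and 59631 probes were quantile normalised. Probes well above background on at least 3 of 6 arrays were compared with limma 3.58.1 in R 4.3.3 (two-sided tests from lmFit and eBayes), with Benjamini-Hochberg adjustment over all tested probes. Arrays of 1 group whose mean chi-square was at most 1 were averaged. The number of arrays limits the precision.

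The members, lists and tests were chosen with earlier results of these data known. Named by rule were AK probes past the adjusted threshold, detected on all 6 arrays and with groups apart (at most 10 in each direction), the 5 brightest, the 3 with the widest range in each group among those detected on all 6 arrays, clones with several probes, probes with a listed gene (none) and AK135967. AK040631, AK040636, AK050392, AK015763, AK145170, AK136056, AK122515, AK188366, AK182289, AK196148, AK033774, AK033775 and AK045672 were named after their values were seen. The fits were tested on simulated data. Alternatives were the normexp correction (offset 50), scaling to the 75th percentile, other filters, 6 arrays as samples, Apc+/+ replicates 2 and 3 averaged, replicate and position blocks, eBayes with trend and robust settings, the methods' t-test, and leaving out each array.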

Additional observations from a re-analysis of the deposited data

How the results depend on the processing

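Over 17 alternatives, the fall of AK135967 kept its direction, from -4.15 to -2.20 on the log2 scale. The count of AK probes past the adjusted threshold and lower in HCC was 1, and became 2 with detection required on all 6 arrays, with levels required above the brightest negative control, with 6 arrays as samples, with trend and robust settings and with the methods' t-test, AK050392 being the probe added. It became 0 with Apc+/+ replicates 2 and 3 averaged and with the position block, and was 0 to 1 when 1 array was left out. The count higher was 0, and 1 with 6 arrays (AK145170). At the methods' threshold, 3 were higher, and 1 with either stricter filter, with the position block or with the t-test. AK145170 and AK015763, faint and detected on HCC arrays alone, fall outside both stricter filters by definition. At the same threshold 4 were lower, and 1 with normexp. With an array other than HCC replicate 3 left out, 1 to 3 were higher (the lowest without Apc+/+ replicate 3) and 3 to 4 lower. The median difference of 0.09 became -0.074 with the position block and ran from -0.060 (without HCC replicate 3) to 0.15 with an array left out. Directions turned for AK216629 (-0.0020 with the position block), AK210533 (0.055 with 75th percentile scaling) and AK090059 (-0.10 with 6 arrays, with the replicate block and with the t-test, -0.24 without Apc+/+ replicate 1, and from -0.68 without HCC replicate 3 to 0.53 with an array left out). The causes were not tested. All-probe calls were 878, and 3441 with 6 arrays, 277 with no filter and 1966 with detection on all 6 arrays. Deviations of same-numbered samples had correlations of 0.06, -0.07 and 0.04. With so few arrays, and HCC replicates 1 and 2 nearly identical, these cannot show whether the numbers pair the samples. The replicate block on 6 arrays called 0 AK probes higher and 1 lower. Signal over background limits the faint probes, 26 of 77 lying at or below the brightest negative control.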
